A study of Mus musculus with 6 samples.

Results

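A set of 10 genes of the prostate's luminal epithelium that are known to respond to androgen were followed in dorsal plus lateral prostate of mice treated with OSU-CG5 or vehicle. They were Foxa1, Spdef, Fkbp5, Tmprss2, Steap4, Slc45a3, Ndrg1, Abcc4, Sord and Mme. Members were taken by name, as every probe set whose platform annotation gives 1 of these symbols and no other. This gave 21 of the 45037 probe sets on the array, for 9 of the 10 genes. Sord, which encodes sorbitol dehydrogenase, was not analysed here, as no probe set carried its symbol in the annotation used.

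Intact male TRAMP mice of the F1 generation, from C57BL/6 TRAMP and FvB parents, were dosed by oral gavage for 4 weeks, between 6 and 10 weeks of age. The OSU-CG5 group received 100 mg/kg per day of OSU-CG5, a compound known by its code name, and the other group received vehicle. Between 2 and 4 h after the final gavage the tissue was collected, and RNA of 3 mice per group was put on 1 Affymetrix array each. All 6 mice carried the TRAMP transgene, in which a probasin promoter that itself responds to androgen drives the SV40 T antigens in prostate epithelium. Values are log2 signals, where 1 unit is a 2-fold step.

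As background, testosterone is converted in the prostate to dihydrotestosterone, the more potent androgen. Androgen signalling acts in the nucleus together with pioneer factors such as Foxa1, and maintains the secretory programme of luminal cells. Most of the DNA sites through which it acts in prostate cells lie in enhancers away from gene starts. Several of the genes followed here were identified as androgen targets in human prostate cells, and some of them also respond to glucocorticoids or to lack of oxygen.

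The tissue's own markers were read first. The prostate secretory transcript Pbsn gave signals of 13.82 to 13.90 on the OSU-CG5 arrays, against 13.28 to 13.91 on the vehicle arrays. The mean signal of 7 luminal epithelium markers, among them Krt8, Krt18 and Hoxb13, ran from 10.83 to 11.00 with OSU-CG5 and from 10.96 to 11.30 with vehicle. A single array stood apart. Across probe sets, the Pearson correlation of vehicle replicate 2 with any other array was at most 0.981 and at least 0.966, while between the others it was 0.987 to 0.995. Its mean signal over 5 transcripts of seminal vesicle secretion was 8.07, against 3.72 to 4.82 on the OSU-CG5 arrays and 4.10 and 5.26 on the other vehicle arrays. The difference of each member gene's brightest probe set is given with and without this array.

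Sequences just before the gene starts are shown for 4 of these genes, 3 that hold the letters of a half-site for androgen response or of a forkhead motif and 1 that holds none. RefSeq promoter windows of build GRCm38.p6 were found for 9 of the 10 genes, 13 windows of 300 bases in all, since some genes have several starts. Ndrg1 was not among them. Both strands were searched for the androgen response element (AGAACA, then 3 bases of any kind, then TGTTCT), for its half-site AGAACA, for the forkhead motif TGTTTAC and for the TATA box TATAAA. The half-site is contained in the full element. The 250 bases before the start are printed 5′ to 3′ on the gene's strand, and capitals mark a forkhead motif in Foxa1 and a half-site in Spdef and Abcc4, all read on the opposite strand.

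Foxa1, chr12:57546112-57546361, - strand: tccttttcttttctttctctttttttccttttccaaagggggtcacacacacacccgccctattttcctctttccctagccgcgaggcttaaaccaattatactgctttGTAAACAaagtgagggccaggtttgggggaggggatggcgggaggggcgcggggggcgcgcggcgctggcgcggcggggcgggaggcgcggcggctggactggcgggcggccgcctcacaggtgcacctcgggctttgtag
Spdef, chr17:27728952-27729201, - strand: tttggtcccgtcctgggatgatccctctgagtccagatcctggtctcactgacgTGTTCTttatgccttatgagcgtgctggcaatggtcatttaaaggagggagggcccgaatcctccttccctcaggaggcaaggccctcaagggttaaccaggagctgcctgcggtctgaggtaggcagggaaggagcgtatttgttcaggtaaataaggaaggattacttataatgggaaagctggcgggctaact
Abcc4, chr14:118676932-118677181, - strand: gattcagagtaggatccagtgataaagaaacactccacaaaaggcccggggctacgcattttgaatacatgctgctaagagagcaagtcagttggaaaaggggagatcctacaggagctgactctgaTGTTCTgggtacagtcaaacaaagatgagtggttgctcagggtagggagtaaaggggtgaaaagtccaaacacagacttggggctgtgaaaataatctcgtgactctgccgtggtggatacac
Mme, chr3:63294961-63295210, + strand: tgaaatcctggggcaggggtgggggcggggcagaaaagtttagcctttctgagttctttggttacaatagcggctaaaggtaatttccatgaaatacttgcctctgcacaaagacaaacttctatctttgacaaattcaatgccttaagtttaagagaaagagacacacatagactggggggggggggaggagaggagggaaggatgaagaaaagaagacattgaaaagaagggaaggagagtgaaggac

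The Foxa1 window held 1 forkhead motif, which begins 141 bases before the start. The Spdef window held 1 half-site, 196 bases before the start, and a downstream start of Abcc4 held 1, 123 bases before it. Mme is shown at the first of its 3 starts, and none of its 3 windows held a half-site or a forkhead motif. Over all 32851 windows, 19.0% held a half-site, 3.65% a forkhead motif and 13.6% a TATA box. The letters of a TATA box occurred in 1 window of Steap4, 215 bases before the start, and in 1 of Slc45a3, 148 bases before it. The full androgen response element was in 0 of the 13 windows and in 3 of all windows (0.00913%). These are matches of letters within short windows, and binding was not measured.

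Across the 21 probe sets, no difference between OSU-CG5 and vehicle passed the test. Log2 differences ran from -0.55 for a probe set of Ndrg1 to 0.37 for one of Mme, and 0 reached 1.5-fold. In limma's fit over the whole table with Benjamini-Hochberg adjustment, 0 of 21 passed at 0.05, and the smallest adjusted p was 0.295. Of all 45037 probe sets 0 passed too (0.0%). At an unadjusted p under 0.05 there was 1 of 21, a probe set of Ndrg1, against 16.4% of all probe sets. The groups did not overlap for 1 of 21 on the higher side, the brightest probe set of Mme, against 11.7% of all probe sets. On the lower side it was 0 of 21, against 11.9%. Of the 21 differences 15 were below 0, and of all probe sets 60.5% were. The median log2 difference was -0.09 over the 21 and -0.06 over all. The order stayed the same among brighter probe sets, while both medians rose. With only those averaging log2 6 or higher kept, the median was -0.054 over 16 of the 21 and 0.013 over all 17617. Without vehicle replicate 2, 11 of the 21 differences were below 0, 0 had an unadjusted p under 0.05, against 15.2% of all probe sets in that fit, and the median was -0.04, against -0.03 over all. In these bulk tissue samples, fewer cells of a type and less RNA per cell cannot be told apart.

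With 1 probe set per gene, that of highest mean signal, 6 of 9 genes read lower and 3 higher. The median log2 difference was -0.05, against -0.09 over all 18193 genes with a symbol, at any signal level. Of all these genes 65.7% read lower. The 95% intervals of the differences show what 3 arrays per group could resolve. Their half-widths ran from 0.26 to 0.53 on the log2 scale. The narrowest belonged to the dim Steap4 1425829_a_at, with means of 4.42 with OSU-CG5 and 4.54 with vehicle. For 15 of the 21 probe sets the whole interval lay within 1.5-fold in either direction (0.58 on the log2 scale), and for 20 it lay within 2-fold. The 15 include dim ones such as Fkbp5 1447736_at, whose means were 2.69 with OSU-CG5 and 2.74 with vehicle. Of the brightest probe sets the interval lay within 1.5-fold for 7 of 9, and the exceptions were Ndrg1 and Mme.

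**Figure D1:**
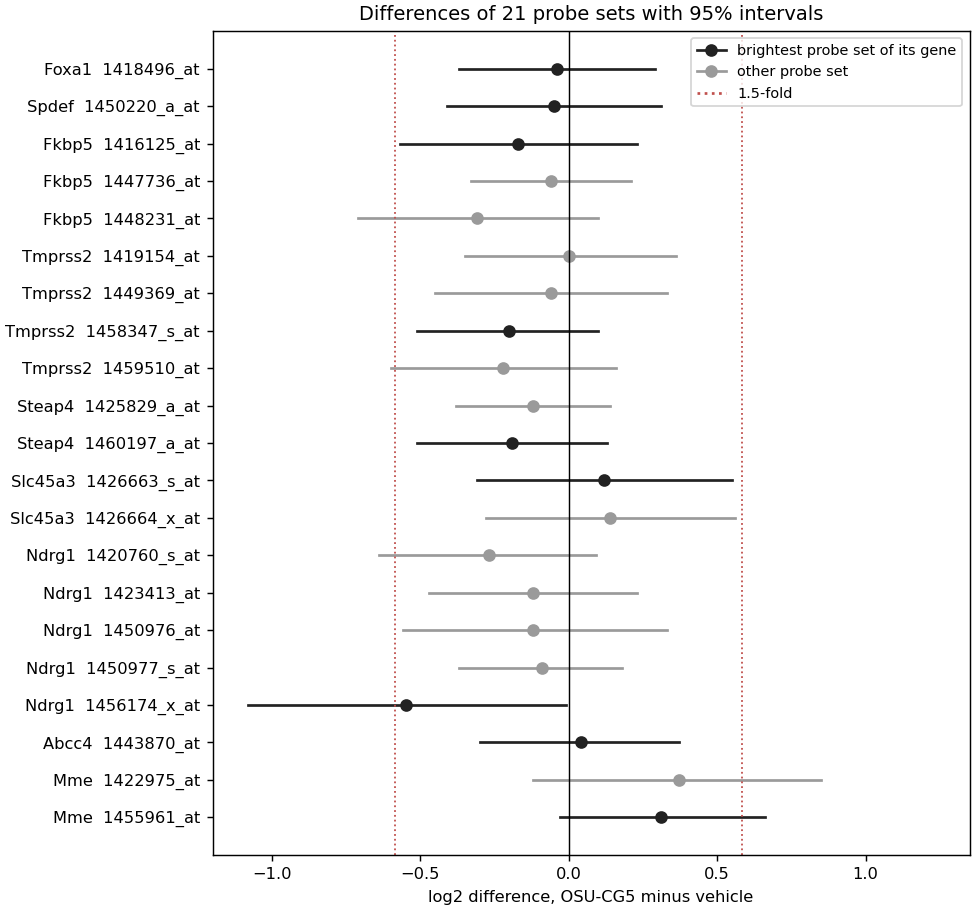
Log2 difference of signal, OSU-CG5 minus vehicle, for 21 probe sets of 9 genes (points), with 95% intervals from limma (lines, n = 3 arrays per group). Black marks the brightest probe set of each gene, grey the others, and dotted lines mark 1.5-fold. All but 1 interval include 0, and the exception, Ndrg1 1456174_x_at, runs from -1.08 to -0.01.

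A pair of transcription factors of luminal cells were read by 1 probe set each. Foxa1, a forkhead pioneer factor that opens chromatin, read 12.24, 12.08 and 12.33 with OSU-CG5, against 12.15, 12.49 and 12.12 with vehicle. The groups overlapped, with vehicle replicate 2 highest. Foxa1 thus differed by -0.04 on the log2 scale (SE 0.14, 95% interval -0.37 to 0.29; limma adjusted p = 0.906), which as a ratio lies between 0.775 and 1.22. Without vehicle replicate 2 it was 0.08.

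Spdef, an ETS family factor of secretory epithelia, read 6.59, 6.39 and 6.44 with OSU-CG5, against 6.29, 6.83 and 6.45 with vehicle. Here vehicle held both the lowest and the highest array. The log2 difference was -0.05 (SE 0.16, 95% interval -0.41 to 0.31; limma adjusted p = 0.899), or 0.11 if vehicle replicate 2 is left out. For both factors the sign therefore turned when that array was left out, and no direction is given to them.

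Fkbp5 encodes a co-chaperone of the Hsp90 complexes that hold steroid receptors, and both androgen and glucocorticoid raise it. Its brightest probe set, 1416125_at, read 10.76, 10.30 and 10.31 with OSU-CG5, against 10.57, 10.89 and 10.43 with vehicle. OSU-CG5 replicate 1 lay among the vehicle arrays, and the other OSU-CG5 arrays lay below all of them. Between the groups it differed by -0.17 on the log2 scale (SE 0.18; limma adjusted p = 0.637). A second probe set designed from the same source sequence, 1448231_at, differed by -0.31 (SE 0.18; limma adjusted p = 0.411). After each was centred on its own mean, these probe sets never lay more than 0.09 apart on any array. Without vehicle replicate 2 their differences were -0.04 and -0.17. The third, 1447736_at, read 2.53 to 2.77 over all 6 arrays, near the lowest value of the table at 1.76, and departed from the brightest one by up to 0.40. Tsc22d3, a glucocorticoid-induced gene chosen for comparison, differed by -0.28 (SE 0.26; limma adjusted p = 0.613) on its brightest probe set.

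Tmprss2 encodes a membrane serine protease, whose androgen-driven promoter is often fused to ERG in human prostate cancer. Its brightest probe set, 1458347_s_at, read 11.48, 11.35 and 11.37 with OSU-CG5, against 11.45, 11.81 and 11.55 with vehicle. The groups overlapped only through OSU-CG5 replicate 1 and vehicle replicate 1. The log2 difference was -0.20 (SE 0.13, 95% interval -0.51 to 0.10; limma adjusted p = 0.460), and -0.10 without vehicle replicate 2. The suffix s marks probes shared by several transcripts, which may belong to different genes. A pair of probe sets designed from a shared source sequence differed by less. Probe set 1419154_at read 9.18, 8.80 and 8.97 with OSU-CG5, against 8.77, 9.20 and 8.98 with vehicle, a log2 difference of 0.00 (SE 0.15), and 1449369_at differed by -0.06 (SE 0.17), while without vehicle replicate 2 the values were 0.11 for 1419154_at and 0.09 for 1449369_at, whose sign turned. Centred on their means, this pair stayed within 0.12 of each other on every array. The fourth, 1459510_at, read between 3.12 and 3.82 and differed by -0.22 (SE 0.16). It was lowest on OSU-CG5 replicate 1, where 1419154_at was high, and the gap between them there was 0.53.

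Slc45a3 encodes prostein, a membrane transporter family protein found in prostate epithelium. It read 10.91, 10.37 and 10.84 with OSU-CG5, against 10.38, 10.87 and 10.50 with vehicle on its brighter probe set. Within each group the arrays fell apart into high and low ones, with replicates 1 and 3 high with OSU-CG5 and replicate 2 high with vehicle. Slc45a3 differed by 0.12 on the log2 scale (SE 0.19, 95% interval -0.31 to 0.55; limma adjusted p = 0.767). The other probe set, 1426664_x_at, differed by 0.14 (SE 0.18) and never lay more than 0.03 from the first after centring. Both came from the same source sequence, so their agreement repeats 1 measurement. Without vehicle replicate 2 the differences were 0.26 and 0.28.

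Abcc4 encodes an efflux pump for cyclic nucleotides and other organic anions, and had 1 probe set. It read 7.42, 7.33 and 7.58 with OSU-CG5, against 7.29, 7.67 and 7.26 with vehicle. The groups overlapped, and the log2 difference was 0.04 (SE 0.15, 95% interval -0.30 to 0.37; limma adjusted p = 0.919). It was 0.17 without vehicle replicate 2.

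Steap4 encodes a metalloreductase that reduces iron and copper at membranes. Its brighter probe set, 1460197_a_at, read 7.11, 6.69 and 6.75 with OSU-CG5, against 7.01, 7.11 and 7.01 with vehicle. As for Fkbp5, OSU-CG5 replicate 1 lay with the vehicle arrays and the others lay below. Steap4 differed by -0.19 on the log2 scale (SE 0.14, 95% interval -0.51 to 0.13; limma adjusted p = 0.513), and -0.16 without vehicle replicate 2. The dimmer probe set, 1425829_a_at, read 4.36 to 4.48 with OSU-CG5 and 4.46 to 4.63 with vehicle, a difference of -0.12 (SE 0.11). On OSU-CG5 replicate 1 the probe sets disagreed by 0.28 after centring. The suffix a marks probes shared by alternative transcripts of 1 gene.

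**Figure D2:**
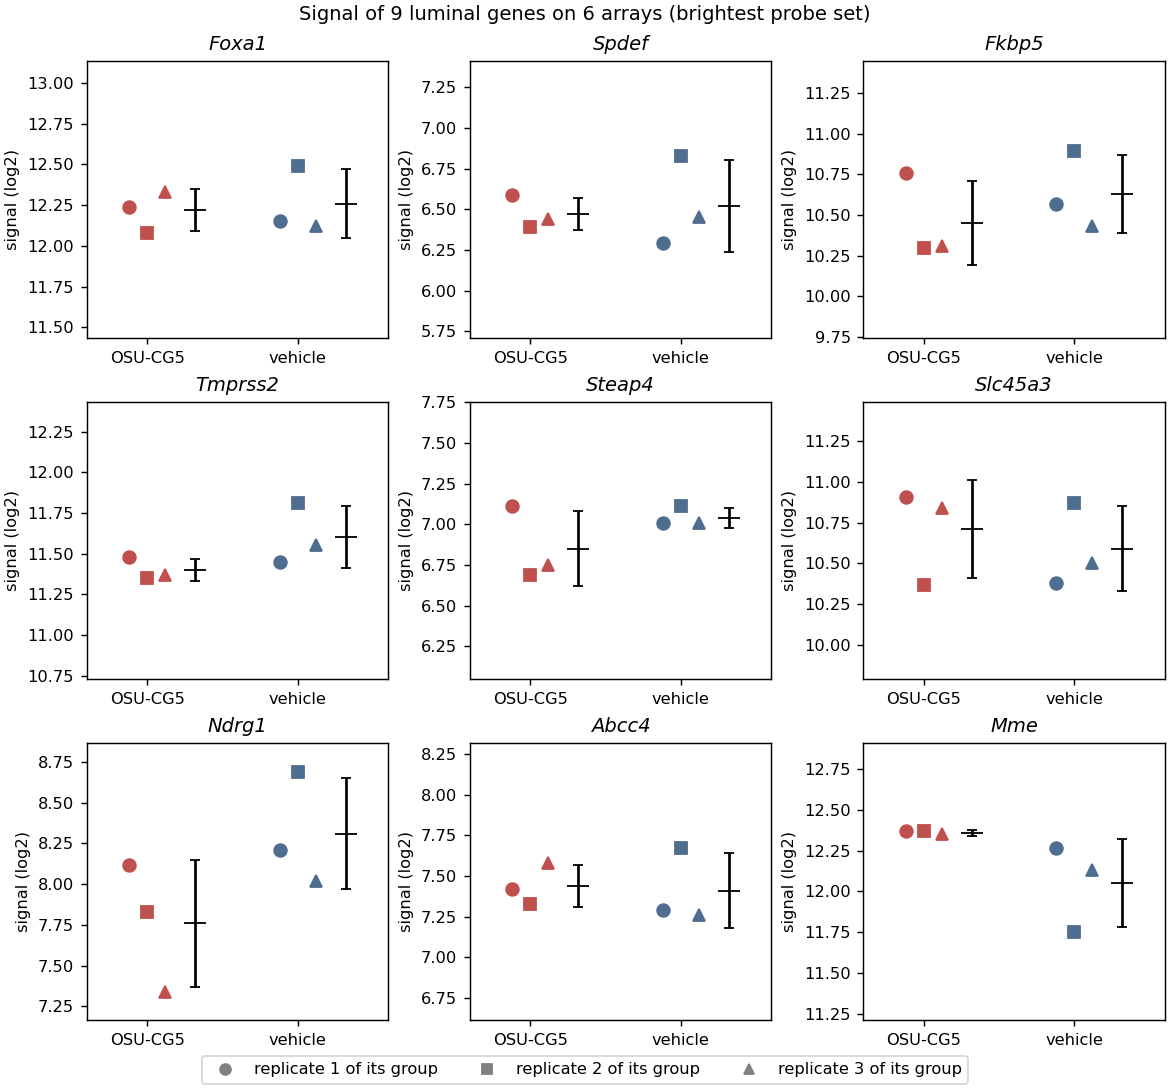
Log2 signal of the brightest probe set of each of 9 genes on the 3 OSU-CG5 arrays (red, left) and 3 vehicle arrays (blue, right). Symbols mark the replicate and black bars the mean ± SD, and each axis spans the same log2 distance. Vehicle replicate 2, the blue square, is the highest array for 6 of the 9 genes and the lowest for Mme, the panel in which the groups do not overlap.

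Ndrg1, a gene induced by androgen, low oxygen and other stresses, had 5 probe sets and the largest difference. The brightest, 1456174_x_at, read 8.12, 7.83 and 7.34 with OSU-CG5, against 8.21, 8.69 and 8.02 with vehicle. The groups overlapped, since OSU-CG5 replicate 1 was above vehicle replicate 3, and OSU-CG5 replicate 3 was the lowest. The log2 difference was -0.55 (SE 0.23, 95% interval -1.08 to -0.01; unadjusted p = 0.0457 and adjusted p = 0.295 in limma), a ratio of 0.684. Without vehicle replicate 2 it was -0.36 (limma adjusted p = 0.447). The suffix x marks probes that can also match other transcripts.

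The other Ndrg1 probe sets also had differences below 0, all nearer to 0. Probe set 1420760_s_at read 7.60, 7.29 and 7.16 with OSU-CG5, against 7.47, 7.85 and 7.53 with vehicle, which is -0.27 on the log2 scale (SE 0.16; limma adjusted p = 0.422). Differences were -0.12 (SE 0.19) for 1450976_at, -0.09 (SE 0.12) for 1450977_s_at and -0.12 (SE 0.15) for 1423413_at, and 1450976_at was at 0.04 without vehicle replicate 2. The 5 probe sets shared a sign but did not share a profile. Between 1456174_x_at and 1450977_s_at the gap after centring reached 0.68, on vehicle replicate 2, where the first was at its highest and the second was near its mean. The spread of the 5 differences, 0.45, was the widest of the 6 genes with several probe sets.

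Mme encodes neprilysin, also called CD10, a membrane endopeptidase of luminal cells that stromal and some lymphoid cells carry too. Its brightest probe set, 1455961_at, read 12.37, 12.37 and 12.35 with OSU-CG5, against 12.27, 11.75 and 12.13 with vehicle. The OSU-CG5 arrays all lay above the vehicle arrays and close together, and vehicle replicate 2 was far below the rest. The means were 12.36 ± 0.02 with OSU-CG5 and 12.05 ± 0.27 with vehicle (SD, n = 3 each), a log2 difference of 0.31 (SE 0.15, 95% interval -0.03 to 0.66; limma adjusted p = 0.339), or 1.24-fold. The second probe set, 1422975_at, read 9.89, 9.50 and 9.54 with OSU-CG5, against 9.67, 8.86 and 9.30 with vehicle. Here the groups overlapped through vehicle replicate 1. The difference was 0.37 (SE 0.21; limma adjusted p = 0.412).

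A large share of the Mme difference came with vehicle replicate 2. Without it the difference was 0.16 on both probe sets, with a limma adjusted p of 0.568 and 0.692. In the vehicle group the order of arrays for Mme was the reverse of that for the seminal vesicle transcript Svs4, a secretory protein of the neighbouring gland. Svs4 read 6.36, 5.46 and 3.65 with OSU-CG5, against 4.45, 9.65 and 7.20 with vehicle. Among the OSU-CG5 arrays there was no such reversal. Mme stayed between 12.35 and 12.37 there on its brightest probe set, and read 9.89, 9.50 and 9.54 on 1422975_at. Svs4 varied widely on these arrays but stayed below its 9.65 on vehicle replicate 2, so they do not cover that level. The part of seminal vesicle tissue in the Mme values was not tested.

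Agreement between probe sets could be read for 6 genes, since Foxa1, Spdef and Abcc4 had 1 each. All probe sets of a gene had the same sign of difference for 5 of the 6, below 0 for Fkbp5, Steap4 and Ndrg1 and above 0 for Slc45a3 and Mme. Steap4, Slc45a3 and Mme had only 2 probe sets each. The share over all genes with several probe sets was not counted, so whether 5 of 6 is unusual cannot be told. Tmprss2 was the exception, with 3 below 0 and 1 at 0.00. The 3 pairs designed from a shared source sequence, in Fkbp5, Tmprss2 and Slc45a3, had largest gaps of 0.09, 0.12 and 0.03. In Fkbp5 and Tmprss2 these were the closest profiles within the gene. The next closest Tmprss2 pair had a gap of 0.18, and the third Fkbp5 probe set was dim. In Slc45a3 no other pair existed for comparison. Of the 21 probe sets, 5 had a mean under log2 6 and 3 of these a mean under log2 4, namely 1447736_at of Fkbp5, 1459510_at of Tmprss2 and 1423413_at of Ndrg1. The median SD within a group was 0.19 with OSU-CG5 and 0.24 with vehicle for the members. For all probe sets it was 0.13 with OSU-CG5 and 0.18 with vehicle.

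**Figure D3:**
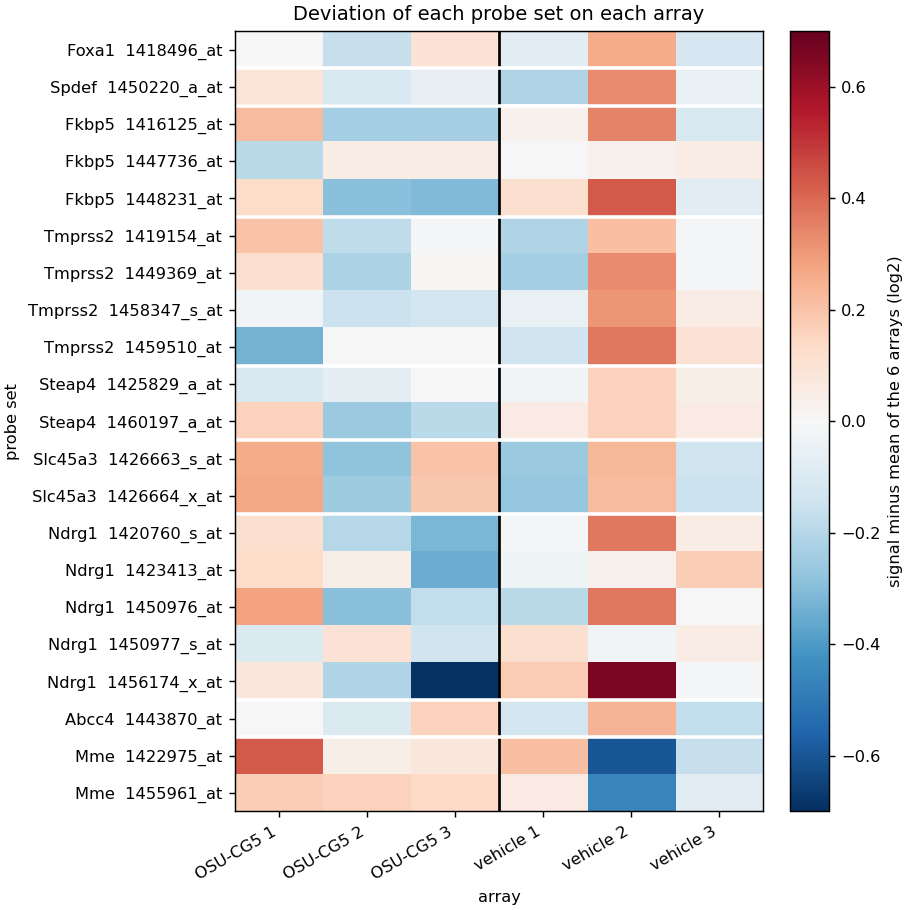
Signal of each of 21 probe sets on each array minus its own mean over the 6 arrays (log2, colour scale from -0.7 to 0.7), with OSU-CG5 arrays left of the black line and vehicle arrays right of it. White lines separate genes. The column of vehicle replicate 2 is the highest of the 6 for 13 probe sets and the lowest for both probe sets of Mme.

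Much of the variation among the members followed a single array. Vehicle replicate 2 was the highest array for 13 of the 21 probe sets and the lowest for 2, while over all probe sets it was the highest for 32.5% and the lowest for 20.9%. Among the brightest probe sets it was the highest for 6 of 9 genes, against 38.4% of all genes. It exceeded the mean of the other vehicle arrays by 0.36 for Foxa1, 0.46 for Spdef, 0.43 for Slc45a3 and 0.57 for Ndrg1, and for Mme the same difference was -0.45. Of the 7 luminal markers, Krt18 (11.51), Krt19 (10.48), Epcam (11.31), Cdh1 (10.56) and Hoxb13 (10.82) also read highest there. The brightest probe set of Krt8 was highest on vehicle replicate 3, at 12.27, and Cd24a was lowest on vehicle replicate 2, at 12.65.

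**Figure D4:**
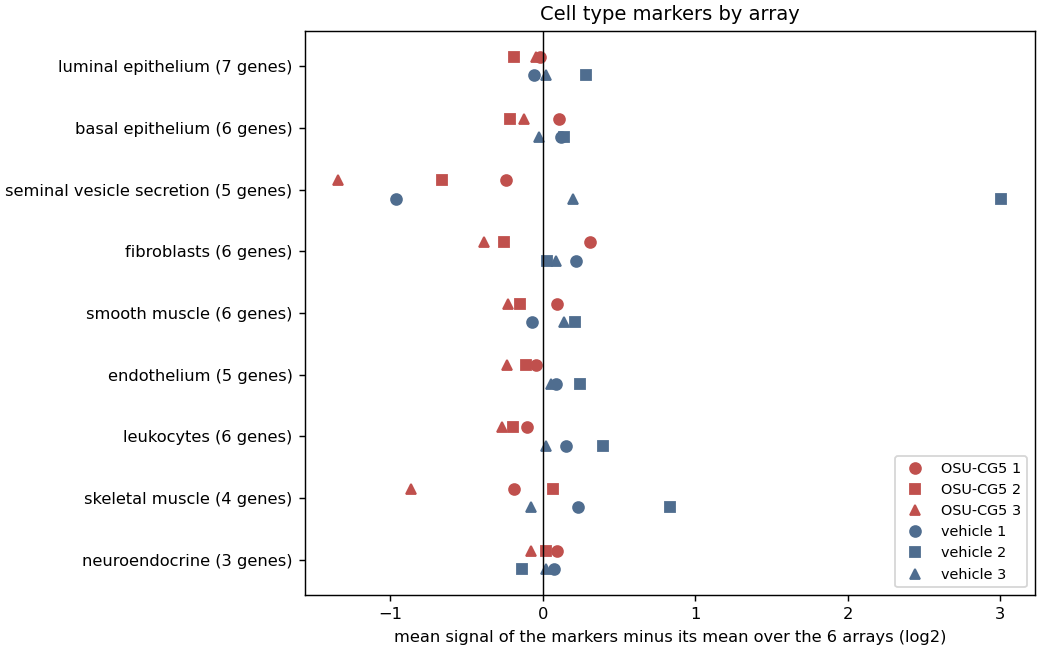
Mean log2 signal of the markers of each cell type on each array, minus its mean over the 6 arrays, with OSU-CG5 arrays in red above vehicle arrays in blue. Seminal vesicle transcripts spread from 3.72 to 8.07 over the arrays, and luminal markers from 10.83 to 11.30. The means of the leukocyte and of the endothelial markers lie lower on every OSU-CG5 array than on any vehicle array, which does not hold for each single marker.

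Markers of other cell types moved between the arrays as follows, given as the mean of each set on each array. Luminal markers averaged 10.94 ± 0.09 with OSU-CG5 and 11.10 ± 0.18 with vehicle (SD, n = 3 each), with p = 0.3 in a two-sided exact permutation test whose smallest possible p is 0.1. The difference was -0.16, with 6 of 7 markers lower, and -0.06 without vehicle replicate 2. The 6 basal markers, Krt5 and Trp63 among them, averaged 5.68 ± 0.16 with OSU-CG5 and 5.83 ± 0.09 with vehicle (exact permutation p = 0.2). The 6 leukocyte markers ran from 6.27 to 6.43 with OSU-CG5 and from 6.56 to 6.93 with vehicle (exact permutation p = 0.1). Of them 5 had a difference below 0, while Ptprc was at 0.16. The 5 endothelial markers ran from 4.85 to 5.04 with OSU-CG5 and from 5.14 to 5.33 with vehicle (exact permutation p = 0.1). All 5 had a difference below 0, with Pecam1 at -0.02. The 6 fibroblast markers ran from 9.04 to 9.73 with OSU-CG5 and from 9.45 to 9.64 with vehicle, and the 6 smooth muscle markers from 9.67 to 9.99 with OSU-CG5 and from 9.83 to 10.11 with vehicle. The 4 skeletal muscle markers ran from 5.67 to 6.60 with OSU-CG5 and from 6.46 to 7.37 with vehicle, and the 3 neuroendocrine ones from 4.69 to 4.86 with OSU-CG5 and from 4.63 to 4.84 with vehicle. Their part in the member values was not tested. Centred on the luminal marker mean, a setting chosen after seeing the data, the difference of the brightest Mme probe set was 0.48 and that of Ndrg1 -0.39 (limma adjusted p = 0.373 and 0.496).

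The wider androgen pathway was read from 3 lists, with the members left out. Of 40 genes for receptors, steroid enzymes, coregulators and partner factors, 33 were measured, and the other 7 were not analysed here. Their median log2 difference was 0.04, against -0.09 over all genes of any signal level, with 21 above 0 and 12 below. In limma 0 passed adjustment, and at an unadjusted p under 0.05 there were 1 higher and 1 lower (6.06%), against 13.8% of all genes. Kdm3a, a histone demethylase, read 10.08, 10.33 and 10.24 with OSU-CG5, against 9.92, 9.65 and 9.88 with vehicle, a difference of 0.39 (SE 0.13; limma adjusted p = 0.220). Creb3l4, a membrane-bound bZIP factor, read 4.96, 5.06 and 5.08 with OSU-CG5, against 5.40, 5.47 and 5.36 with vehicle, a difference of -0.38 (SE 0.11; limma adjusted p = 0.190). For both of these genes the groups did not overlap, as for 4 of 33 on the higher side and 1 on the lower, against 8.1% and 14.2% of all genes. The progesterone receptor Pgr differed by 0.32 (SE 0.15), the glucocorticoid receptor Nr3c1 by 0.28 (SE 0.14) and the epithelial ETS factor Elf3 by -0.31 (SE 0.15). Hoxb13, a homeobox factor of prostate epithelium, differed by -0.10 (SE 0.18; limma adjusted p = 0.801).

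Other genes known to respond to androgen in human prostate cells were the second list. Of 90 listed, 84 were measured, with a median log2 difference of 0.01, 45 above 0 and 39 below. In limma 0 passed adjustment. With the unadjusted p under 0.05 there were 12, of which 9 were higher and 3 lower (14.3%), against 13.8% of all genes. The groups did not overlap for 15 on the higher side (17.9%) and 5 on the lower (5.95%), against 8.1% and 14.2% of all genes. Those shares cover genes of any signal level and are not matched to the list in signal, so no excess is read from them. The amino acid transporter Slc38a2 read 10.97, 11.10 and 11.00 with OSU-CG5, against 10.45, 10.21 and 10.45 with vehicle, a difference of 0.65 (SE 0.12; limma adjusted p = 0.139), or 1.57-fold. The scaffold protein gene Homer2 read 9.80, 9.85 and 9.92 with OSU-CG5, against 9.05, 9.41 and 9.38 with vehicle, a difference of 0.57 (SE 0.13; limma adjusted p = 0.155). The receptor kinase Mertk differed by 0.46 (SE 0.15), the G protein subunit Gnai3 by 0.38 (SE 0.12) and the endosomal GTPase Rab4a by -0.52 (SE 0.17).

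Secretory products of the mouse prostate that respond to androgen were the third list, with 11 of 14 measured. Of these 8 were above 0 and 3 below, while 65.7% of all genes were below. The median of the 11 was 0.09, against -0.09 over all genes. That reference takes in genes of any signal level. Over all probe sets the median was -0.059, but 0.013 once those averaging under log2 6 were dropped. A median of all genes matched to the lists in signal was not computed. In limma 0 of the 11 passed adjustment and 0 had an unadjusted p under 0.05, against 13.8% of all genes. Pbsn, or probasin, read 13.90, 13.84 and 13.82 with OSU-CG5, against 13.91, 13.28 and 13.81 with vehicle. Msmb, a secreted protein of prostate fluid, read 13.33, 13.34 and 13.27 with OSU-CG5, against 13.33, 12.26 and 13.30 with vehicle. In both, as in Mme, vehicle replicate 2 was the lowest array, and the other 5 lay close together. The trypsin inhibitor Spink1 varied widely with OSU-CG5, at 10.55, 11.25 and 13.22, against 10.48, 11.02 and 10.23 with vehicle, a difference of 1.10 (SE 0.59; limma adjusted p = 0.384). The protease Mmp7 differed by 0.21 (SE 0.12), and it was the 1 gene of the 11 whose groups did not overlap (9.09%), against 8.1% of all genes on the higher side. Acp3, prostatic acid phosphatase, differed by -0.25 (SE 0.13). Clu differed by -0.23 (SE 0.13). It encodes clusterin, whose message in prostate is known to rise when androgen is withdrawn, unlike the secretory products that androgen maintains.

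**Figure D5:**
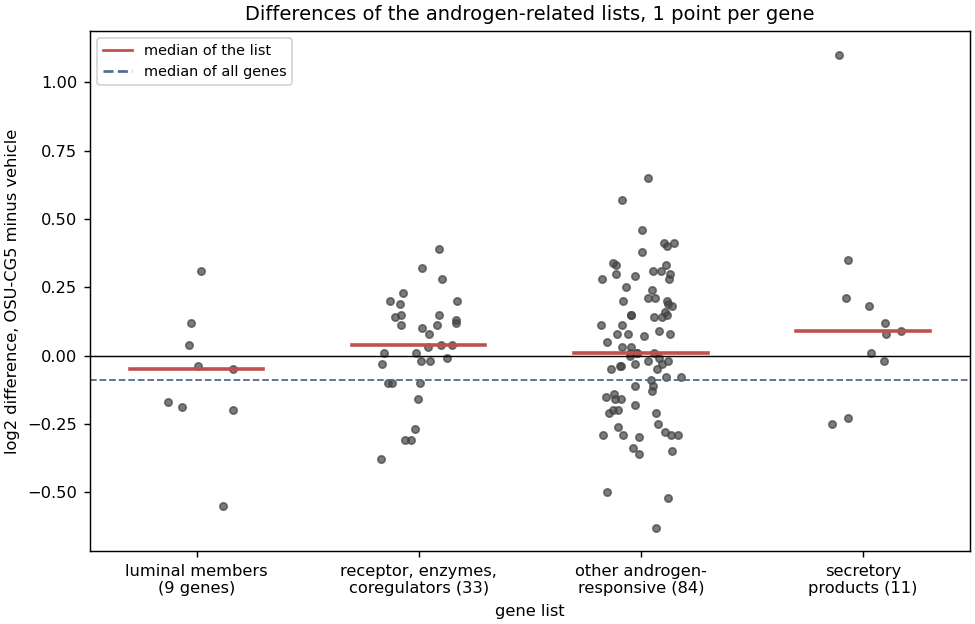
Log2 difference, OSU-CG5 minus vehicle, of each gene (points, brightest probe set) among the 9 luminal members and in 3 androgen-related lists of 33, 84 and 11 measured genes. Red bars are list medians, at -0.05, 0.04, 0.01 and 0.09, and the dashed line is the median of all genes, at -0.09. The dashed line covers genes of any signal level and is not matched to the lists in signal.

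For each member the gene with the most similar profile over the 6 arrays was looked up among 9626 others with a mean of at least log2 6. Pearson's r is given as a measure of likeness without a p, since each was the best of that many and over 6 arrays high values are common. Tmprss2 was most like Pex6 (r = 0.999), and 299 genes had an r above 0.95 with it. Mme was most like Syap1 (r = 0.998), with 212 above 0.95, and Fkbp5 most like Ilf2 (r = 0.997). Slc45a3 had the fewest such genes, 13, and was most like Krt10 (r = 0.985). Foxa1 was most like Casc3 (r = 0.987), Spdef like Lztr1 (r = 0.996), Ndrg1 like Dpm1 (r = 0.994), Abcc4 like Pdlim1 (r = 0.990) and Steap4 like 2610524H06Rik (r = 0.998).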

How the data were processed

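Gene expression was measured with 1 Affymetrix array per mouse, 3 OSU-CG5 and 3 vehicle. RNA was isolated with Trizol and 2 ug was labelled, per the labels' protocols. The authors deposited 1 log2 signal for each probe set and array; the submitters' processing notes name RMA, whose software is not given in the sources used here. RMA normalizes the arrays together, so a broad shift in 1 direction is partly removed. Groups follow the treatment in the source labels, although descriptions of some treated mice give the compound another number. Replicate numbers only name mice, and nothing in the labels gives a batch.

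The 64 Affymetrix control probe sets were removed. Of the 45037 left, 34945 had a single symbol, 932 several and 9160 none in the platform annotation. Every probe set was tested with limma (3.58.1, R 4.3.3), lmFit and eBayes, OSU-CG5 minus vehicle, with Benjamini-Hochberg adjustment over all of them at 0.05 and no filter. SE and 95% intervals are the moderated ones; SD is over the 3 arrays of a group. The fit was checked on simulated data. Genes were represented by the probe set of highest mean. Named from each list were the 5 genes of smallest unadjusted p, with a few fixed genes. Some genes are not reported here. Marker means were compared by exact permutation tests (scipy 1.17.1). The members and lists were chosen with earlier results of these data known. Alternatives were minimum means of log2 6 and 4, 2 further normalizations, median centring, a trended robust prior, no moderation, array weights, the mean over a gene's probe sets, each array left out, and, added after the data were seen, centring on luminal markers. Precision is limited by the number of arrays.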

Additional observations from a re-analysis of the deposited data

How the results depend on the processing

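No member probe set passed the adjusted threshold under any of the 15 alternatives, although over all probe sets 822 did with array weights, 400 without vehicle replicate 2 and 885 without vehicle replicate 3 (limma). Their smallest adjusted p ran from 0.166 with array weights to 0.550 without OSU-CG5 replicate 3. Of 307 refitted differences of single probe sets, 278 kept their sign and 29 turned it, none past the threshold. For 11 of the 21 probe sets the sign held throughout, those of Mme, Slc45a3 and the brightest of Fkbp5, Tmprss2, Steap4 and Ndrg1 among them. The median over member probe sets ran from -0.162 to 0.068 and that over genes from -0.166 to 0.114.

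Centring on the luminal marker mean, chosen after seeing the data, shifts every difference by the same amount, and 8 of the 29 turns follow from that. It put the median of all probe sets at 0.103, against -0.059, and gave 0.122 for Foxa1, 0.114 for Spdef, 0.103 for Tmprss2 1449369_at, 0.106 for Fkbp5 1447736_at, 0.041 for Steap4 1425829_a_at and 0.044, 0.046 and 0.068 for Ndrg1 1423413_at, 1450976_at and 1450977_s_at. Genes whose probe sets all had 1 sign then numbered 2 of 6, against 5. Array weights gave 0.025 for Foxa1, 0.033 for Spdef and 0.023 for Tmprss2 1449369_at. Quantile normalization gave -0.050 for Abcc4 and -0.070 for Tmprss2 1419154_at, and cyclic loess -0.030 for that probe set and 0.001 for Fkbp5 1447736_at. Leaving out 1 array at a time, ranges were -0.038 to 0.167 for Abcc4, -0.108 to 0.079 for Foxa1, -0.166 to 0.107 for Spdef, -0.098 to 0.023 for Fkbp5 1447736_at, -0.101 to 0.111 for Tmprss2 1419154_at, -0.192 to 0.091 for 1449369_at, -0.214 to 0.028 for Ndrg1 1423413_at and -0.286 to 0.038 for 1450976_at. The cause of the other turns was not tested. No paired analysis was possible because the replicate numbers only name the mice. With 3 arrays per group, a difference smaller than its interval's half-width, 0.26 to 0.53 on the log2 scale, could not be told from 0.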
